A study of Saccharomyces cerevisiae with 109 samples.

Results

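The 30 genes described here carry out and control glycolysis and gluconeogenesis in the budding yeast Saccharomyces cerevisiae. They were taken from a list of gene symbols drawn up with earlier results of these data known, with no threshold on a measured value, and make up 30 of the 5876 nuclear protein-coding genes quantified. The list holds 20 genes of glycolytic steps (HXK1, HXK2, GLK1, EMI2, PGI1, PFK1, PFK2, FBA1, TPI1, TDH1, TDH2, TDH3, PGK1, GPM1, GPM2, GPM3, ENO1, ENO2, CDC19 and PYK2) and 4 of gluconeogenesis and anaplerosis (FBP1, PCK1, PYC1 and PYC2). It also holds 3 that make or break down the regulatory sugar fructose 2,6-bisphosphate (PFK26, PFK27 and FBP26) and 3 transcription factors (GCR1, GCR2 and TYE7).

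All cultures were of one W303 strain, haploid and of mating type MATa, in glucose-containing medium. They were given the uracil analog 4-thiouracil (4tU) at 5 mM, through which new RNA could be separated from old. High [GSH] cultures had 250 µM of added glutathione, a thiol antioxidant that yeast makes, and low [GSH] cultures had none added. Labelled RNA was taken up to 96 h in high and low [GSH] cultures at 1 °C and at 5 °C, and up to 20 min in low [GSH] cultures at 30 °C, and each of these 5 conditions also had steady-state RNA. Each condition and time had 3 libraries, save that 5 °C with high [GSH] had 2 at 3 h and at 12 h. Fission yeast (Schizosaccharomyces pombe) cells, in a fixed amount, were added before RNA extraction as a spike-in of labelled RNA. The 109 libraries were called biological replicates in the labels, and libraries with the same replicate number in a condition were taken as one culture.

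Steady-state libraries held 14751569 to 60955974 reads, of which 454669 to 3709302 fell on the 30 genes. In labelled cold libraries the 30 genes held 20235 to 1873576 reads, the smallest being time 0 controls. At 30 °C the labelled libraries were uneven, down to 8368 reads on mRNA at time 0 and 18937 at 5 min in 1 library each, so no test used them. In steady state the MATa genes STE2, MFA1, MFA2 and BAR1 were at 18.8 to 3690 mRNA TPM and the MATalpha genes STE3, MF(ALPHA)1, MF(ALPHA)2 and SAG1 at 0 to 152, so the ranges overlapped, with SAG1 at 5.44 to 28.5 and BAR1 at 18.8 to 50.8 and the highest MF(ALPHA)1 value near the lowest of STE2 (150). Levels are given as mRNA TPM, that is, reads per length rescaled so that nuclear protein-coding genes have the same sum in every library. Fold changes came from edgeR's quasi-likelihood test with Benjamini-Hochberg adjustment over all genes tested and a threshold of 0.05, and every adjusted p below is from that test. They are log2 values ± SE relative to the typical gene. In bulk RNA, fewer cells with a transcript and fewer transcripts per cell cannot be told apart.

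Glycolysis turns glucose into pyruvate in a chain of enzymes, several of which yeast encodes in pairs or trios of isozymes with distinct expression. Gluconeogenesis runs the chain backwards from small carbon compounds, sharing the reversible enzymes but replacing the irreversible steps with its own, fructose-1,6-bisphosphatase (FBP1) and phosphoenolpyruvate carboxykinase (PCK1). On glucose, yeast is known to repress FBP1 and PCK1 and to express glycolytic enzymes among its most abundant mRNAs, under the transcription factors Gcr1, Gcr2, Rap1 and Tye7.

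Several isozymes are so alike that reads can fit more than 1 of them. The coding sequences of TDH2 and TDH3 were 95.8% identical, those of TDH1 and TDH3 88.9%, those of ENO1 and ENO2 94.8% and those of PYC1 and PYC2 85.1%. Of the 31-base words of each coding sequence, 26.3% in TDH1, 43.2% in TDH3, 50.6% in TDH2 and 38.8% in each enolase gene also occurred in another gene's, as did 13.1% in PYC1, 13% in PYC2 and 5.16% in GLK1. For the other 22 members this share was 0%. TDH1 differed from TDH3 at 111 of 999 positions and TDH2 at 42, so TDH1 has more sequence of its own than TDH2 and TDH3, which are alike over long stretches. The stretches shown, from base 52 to base 111 of each coding sequence, are where the 3 genes can be told apart, and capitals mark the bases that differ from TDH3.
TDH1 (R64, chrX:338322-338381, plus strand): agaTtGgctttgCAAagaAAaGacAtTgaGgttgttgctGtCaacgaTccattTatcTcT
TDH2 (R64, chrX:454571-454630, minus strand): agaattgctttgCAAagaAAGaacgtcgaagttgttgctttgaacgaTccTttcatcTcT
TDH3 (R64, chrVII:883700-883759, minus strand): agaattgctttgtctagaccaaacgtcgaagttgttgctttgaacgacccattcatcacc
TDH1 carries 17 such bases here and TDH2 carries 10. The enolase genes differed at 68 of 1314 positions, and a stretch from base 340 to base 399 holds 13 of them, in capitals in ENO1.
ENO1 (R64, chrVII:1001266-1001325, plus strand): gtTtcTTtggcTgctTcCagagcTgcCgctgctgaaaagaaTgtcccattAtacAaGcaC
ENO2 (R64, chrVIII:451666-451725, plus strand): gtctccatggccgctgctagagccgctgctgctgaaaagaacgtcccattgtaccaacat
Values of single TDH, ENO and PYC genes therefore depend on how Salmon, the program that assigned the reads, divided them, and the summed copies are given beside them.

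FBP1 and PCK1 share a feature of their upstream DNA that none of the other 28 members had. Within 600 bases before the coding start, on either strand, both held a match to the carbon source-responsive element (CSRE), the site known to be bound by the gluconeogenic activators Cat8 and Sip4. Of the 5873 upstream regions searched, 32 (0.545%) held one. Each match is shown in capitals with 20 bases on either side, read on the strand of the gene.
FBP1 (R64, chrXII:875266-875316, minus strand): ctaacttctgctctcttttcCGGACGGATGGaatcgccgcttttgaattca
PCK1 (R64, chrXI:630570-630620, plus strand): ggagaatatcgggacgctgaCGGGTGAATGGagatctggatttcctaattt
The matches lay 504 to 494 bases before the start of FBP1 and 562 to 552 bases before that of PCK1. CTTCC, the core of Gcr1 sites, was in 25 of 30 members (83.3%) against 72.5% of all upstream regions, and at least 2 copies were in 20 members (66.7%) against 38.1%. The Rap1 consensus was found in PGI1 alone among the members (3.33%, against 2.04% of all regions). These matches describe letters and not binding.

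In steady-state mRNA at 1 °C against 30 °C, most glycolytic enzyme genes were lower relative to the typical gene, though only TDH1 and ENO2 were also lower per S. pombe read. A smaller group drawn from all parts of the list was higher: EMI2, GPM3, FBP1, PCK1, PYC1, PFK26, FBP26 and TYE7. PYC2, PFK27, GCR1 and GCR2 were called lower. Of the 30 genes, 8 rose and 21 fell, with GPM2 not called (0.24), while 73.4% of the 5697 genes tested were called, 2103 of them higher and 2076 lower. The median log2 change was -1.07 over the members and 0.03 over all genes. Of the 20 glycolytic genes, all but EMI2, GPM2 and GPM3 fell. At 5 °C against 30 °C, 9 members rose and 18 fell, with 74.5% of all genes called, a member median of -0.71 and an all-gene median of -0.03. Both comparisons share the 30 °C libraries.

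**Figure D1:**
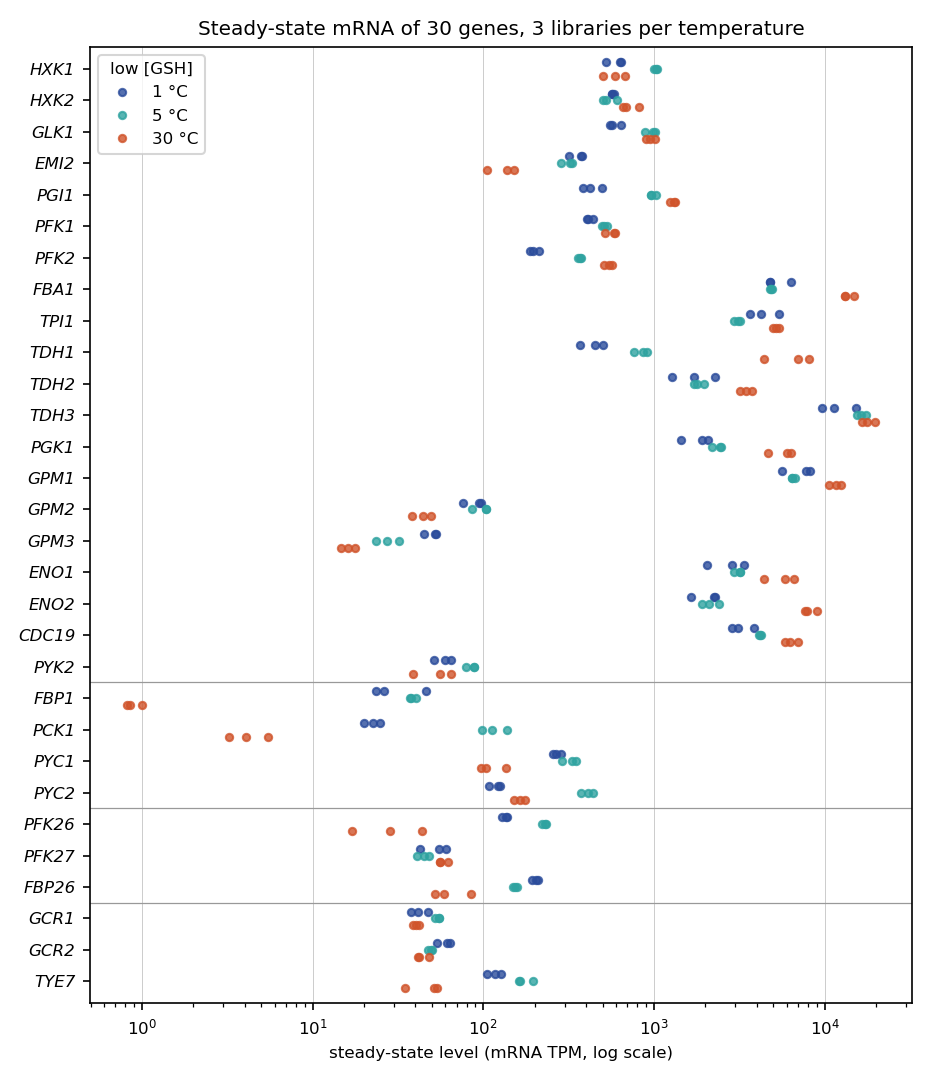
Steady-state level of each gene in mRNA TPM on a log axis, with 1 point per library for 3 low [GSH] libraries at 1 °C, 5 °C and 30 °C. Rules separate glycolytic genes, gluconeogenic and anaplerotic genes, fructose 2,6-bisphosphate enzymes and transcription factors. FBP1, and PCK1 at 5 °C, show the widest gaps between the cold and 30 °C, with the cold higher, and TDH1 shows the widest gap with the cold lower.

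The scale matters for how many genes count as lower. When library sizes were set to the summed mRNA reads, a change is one in share of mRNA reads, called share of mRNA below. On this scale the median of all genes moved to 0.64 at 1 °C and 0.29 at 5 °C against 30 °C. mRNA TPM is also a share, but of reads per length, so changes in it can differ from these. Set to the S. pombe reads, it moved to 2.29 and 0.92. The number of S. cerevisiae cells collected per sample was not taken into account. Values per S. pombe read are therefore not values per cell. TDH1 and ENO2 were lower and EMI2, FBP1, FBP26, GPM3, PCK1, PFK26, PYC1 and TYE7 higher at 1 °C on all 3 scales. A further 15 genes were lower relative to the typical gene and in share of mRNA but not per S. pombe read, where 22 members were higher at 1 °C and 2 lower. In share of mRNA the split was 10 higher and 17 lower at 1 °C, and 11 higher and 16 lower at 5 °C. GCR2, which passed as lower, had the opposite sign in share of mRNA, as GCR1 had at 5 °C. At 5 °C, TDH1, TDH2, ENO2, FBA1 and PGK1 were lower on all 3 scales.

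TDH1 (YJL052W), a glyceraldehyde-3-phosphate dehydrogenase isozyme, fell furthest. It stood at 503.8, 369.9 and 448.8 mRNA TPM at 1 °C, at 767.4, 914.9 and 867 at 5 °C and at 4433, 6957 and 8106 at 30 °C. The 3 temperatures did not overlap, and the gene ranked 385, 178 and 11 among all genes in the order of temperature. Its log2 change was -4.64 ± 0.18 at 1 °C (adjusted p = 5.31e-11) and -3.56 ± 0.17 at 5 °C against 30 °C (adjusted p = 2.87e-10).

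TDH3 (YGR192C), the main isozyme of the same step, changed far less. It had 9688, 11390 and 15210 mRNA TPM at 1 °C, 17510, 15560 and 16250 at 5 °C and 17620, 19640 and 16520 at 30 °C. Libraries at 5 °C and 30 °C overlapped in mRNA TPM, although TDH3 was called lower at 5 °C in share of mRNA reads. TDH3 ranked 3, 3 and 2 among all genes at 1, 5 and 30 °C. Its log2 changes were -1.35 ± 0.17 and -0.78 ± 0.17 relative to the typical gene. TDH2 had 1272, 1713 and 2265 mRNA TPM at 1 °C, 1974, 1706 and 1789 at 5 °C and 3470, 3747 and 3184 at 30 °C, so both cold groups lay below 30 °C and overlapped each other. Of the summed TDH level, TDH1 thus made up 3.21% ± 1.03 (1 °C), 4.47% ± 0.63 (5 °C) and 23.2% ± 5.89 (30 °C), each over 3 libraries with the SD. With the 3 genes summed, which does not depend on how their shared reads were divided, the log2 change was -1.74 at 1 °C and -1.19 at 5 °C against 30 °C.

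The enolases, which act later in the chain, both fell, ENO2 more than ENO1. ENO2 (YHR174W) had 1644, 2272 and 2236 mRNA TPM at 1 °C, 2412, 2105 and 1915 at 5 °C and 7937, 9010 and 7710 at 30 °C. Every cold library was below every 30 °C library, and the log2 changes were -2.79 ± 0.15 (adjusted p = 7.73e-10) and -2.59 ± 0.15 (adjusted p = 1.37e-09). ENO1 had 2044, 2884 and 3376 mRNA TPM at 1 °C, 3210, 3203 and 2943 at 5 °C and 4404, 5864 and 6635 at 30 °C, with changes of -1.80 and -1.49. ENO2 was 42.8% of the pair at 1 °C, 40.7% at 5 °C and 59.6% at 30 °C, and the 2 genes summed changed by -2.31 and -2.04.

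PGK1 (YCR012W), phosphoglycerate kinase, has no close copy in this list. It had 1445, 1924 and 2073 mRNA TPM at 1 °C, 2467, 2446 and 2198 at 5 °C and 4636, 6036 and 6363 at 30 °C. No cold library reached a 30 °C library, and the log2 changes were -2.42 ± 0.15 (adjusted p = 2.99e-09) and -1.90 ± 0.15. FBA1 (YKL060C), the aldolase, had 4771, 4771 and 6329 mRNA TPM at 1 °C, 4898, 4811 and 4851 at 5 °C and 13130, 14850 and 13140 at 30 °C. It fell alike at both cold temperatures, by -2.16 ± 0.14 and -2.15 ± 0.13.

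The upper enzymes PGI1 and PFK2 had lower mRNA TPM at 1 °C than at 5 °C. PGI1, phosphoglucose isomerase, had 381.8, 420.6 and 498.5 mRNA TPM at 1 °C, 1030, 963.6 and 967.6 at 5 °C and 1234, 1312 and 1327 at 30 °C. PFK2, the beta subunit of phosphofructokinase, had 194.5, 189.1 and 211.6 at 1 °C, 373.9, 358.5 and 369 at 5 °C and 511.3, 564.3 and 545.1 at 30 °C. For both genes the 3 temperatures did not overlap, and the 5 °C libraries lay nearer to 30 °C. PFK1, the alpha subunit, had smaller changes, -1.23 and -0.80. At 1 °C against 5 °C with low [GSH], PGI1 changed by -1.32, PFK2 by -1.03 and PFK1 by -0.43.

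**Figure D2:**
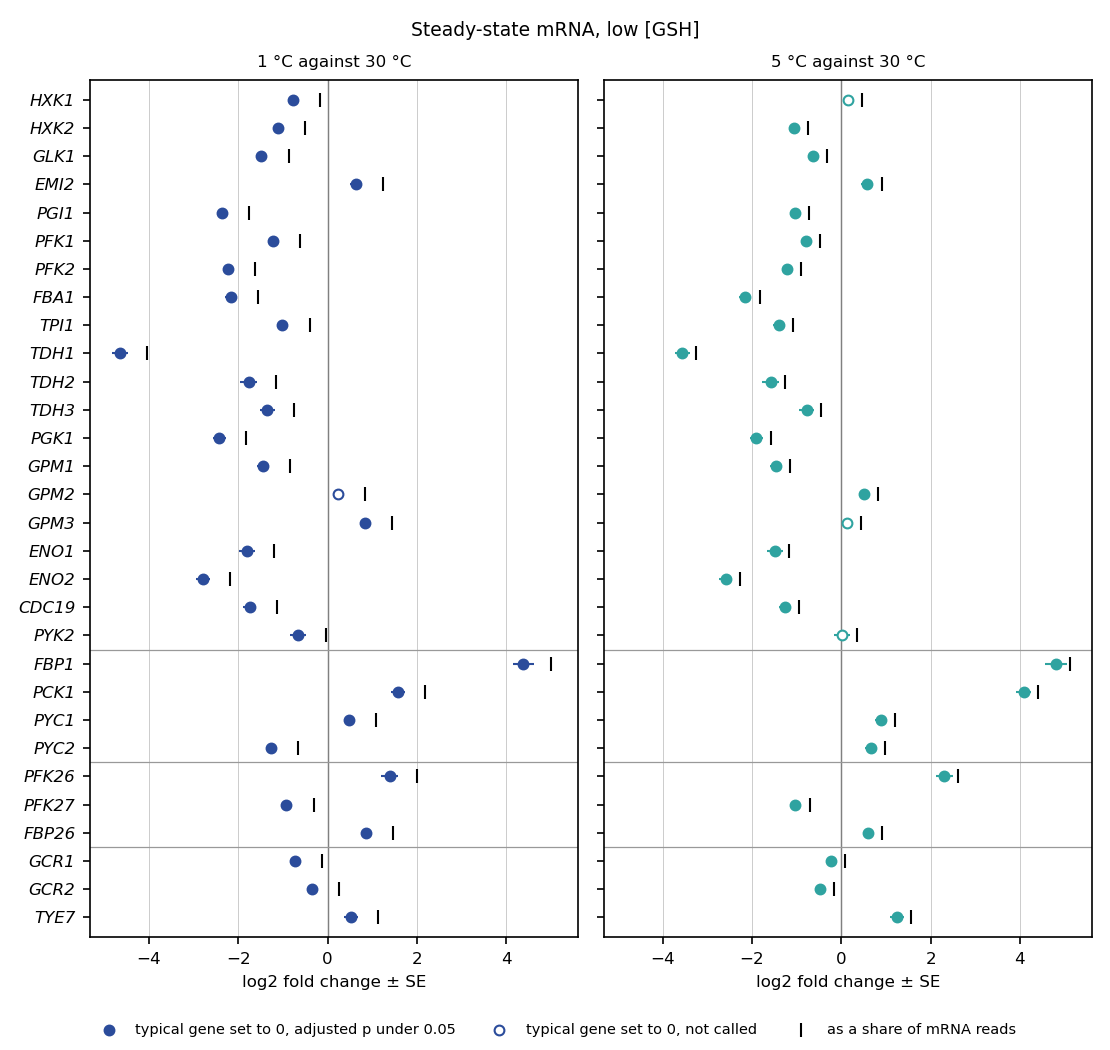
Log2 fold change ± SE of each gene in steady-state mRNA, 1 °C against 30 °C and 5 °C against 30 °C, from 3 libraries per group. Filled circles had an adjusted p under 0.05 and open circles did not, both relative to the typical gene, and the black ticks give the same change as a share of mRNA reads. FBP1 lies at 4.38 and 4.81 and TDH1 at -4.64 and -3.56, and GCR2 at 1 °C and GCR1 at 5 °C have their ticks on the other side of 0.

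Glucose is phosphorylated by HXK1, HXK2, GLK1 or EMI2, and their proportions differed with temperature. EMI2 (YDR516C), the paralogue of the glucokinase GLK1, had 376.2, 376.9 and 316.4 mRNA TPM at 1 °C, 331.5, 320.8 and 285.3 at 5 °C and 150.7, 138 and 105.6 at 30 °C. GLK1 had 568.6, 643.1 and 555.5 at 1 °C, 985.7, 1011 and 882.6 at 5 °C and 894, 1014 and 950.1 at 30 °C. EMI2 was thus higher in every cold library than at 30 °C (log2 0.63 ± 0.14 and 0.59 ± 0.14). GLK1 passed as lower in both comparisons (-1.49 and -0.64). At 5 °C it was also called lower than at 30 °C in share of mRNA reads, although its mRNA TPM overlapped. HXK1 had 639.7, 633.7 and 526.7 mRNA TPM at 1 °C, 1031, 1039 and 1003 at 5 °C and 592.1, 505.9 and 677.7 at 30 °C. HXK2, the main hexokinase on glucose, had 585, 565.8 and 570 at 1 °C, 524.7, 505.2 and 604.8 at 5 °C and 658.1, 688.2 and 822.3 at 30 °C. In mRNA TPM the 1 °C and 30 °C values of HXK1 overlapped, although the change relative to the typical gene was -0.77 and passed the test. EMI2 made up 16.8% ± 0.65 of the 4 kinases at 1 °C, 11.0% ± 0.65 at 5 °C and 5.53% ± 1.26 at 30 °C, HXK1 28.3%, 36.0% and 24.6%, HXK2 27.1%, 19.2% and 30.1%, and GLK1 27.8%, 33.8% and 39.8%.

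The remaining glycolytic steps kept 1 dominant gene at every temperature. GPM1, phosphoglycerate mutase, had 8221, 5595 and 7817 mRNA TPM at 1 °C, 6439, 6708 and 6440 at 5 °C and 10590, 11640 and 12520 at 30 °C, and made up 98.0%, 98.1% and 99.5% of its set. GPM2 and GPM3, homologues not known to carry the enzyme activity in yeast, were far lower. GPM2 had 97.29, 93.98 and 76.13 at 1 °C, 103.7, 104 and 86.36 at 5 °C and 38.21, 44.37 and 49.49 at 30 °C. GPM3 had 52.79, 52.24 and 45.12 at 1 °C, 23.49, 31.87 and 27.43 at 5 °C and 14.68, 16.23 and 17.78 at 30 °C, so its 3 temperatures did not overlap and its change at 1 °C was 0.84 ± 0.12. CDC19, the main pyruvate kinase, had 3115, 2852 and 3845 mRNA TPM at 1 °C, 4249, 4150 and 4177 at 5 °C and 6232, 7021 and 5840 at 30 °C. Its minor isozyme PYK2 had 65.02, 59.58 and 51.41 at 1 °C, 88.27, 87.9 and 79.71 at 5 °C and 64.86, 55.68 and 38.87 at 30 °C, and CDC19 made up 98.2%, 98.0% and 99.2% of the pair. TPI1, triose phosphate isomerase, had 3676, 5382 and 4248 mRNA TPM at 1 °C, 3094, 3214 and 2929 at 5 °C and 5212, 5371 and 5010 at 30 °C, with 1 library at 1 °C above all those at 30 °C. Its changes were -1.02 and -1.40.

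Of all mRNA TPM, the 30 genes together made up 4.55% ± 0.59 (1 °C), 5.19% ± 0.16 (5 °C) and 8.97% ± 0.64 (30 °C), each with the SD over 3 libraries. The glycolytic genes accounted for 4.45%, 5.03% and 8.92% of mRNA TPM. The gluconeogenic and anaplerotic genes went the other way, at 0.0443%, 0.0884% and 0.0280%, as did the fructose 2,6-bisphosphate enzymes and transcription factors, at 0.0607%, 0.0703% and 0.0284%.

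FBP1 (YLR377C), fructose-1,6-bisphosphatase, rose more than any other member in the cold. It had 23.49, 45.95 and 26.3 mRNA TPM at 1 °C, 37.66, 40.58 and 37.36 at 5 °C and 0.996, 0.8526 and 0.8213 at 30 °C. Its reads numbered 724, 1122 and 673 at 1 °C, 320, 369 and 336 at 5 °C and 20, 14 and 31 at 30 °C, so the 30 °C level rests on few reads. Both cold groups were far above 30 °C and overlapped each other, and the log2 changes were 4.38 ± 0.24 at 1 °C (adjusted p = 1.02e-09) and 4.81 ± 0.25 at 5 °C (adjusted p = 4.51e-10).

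PCK1 (YKR097W), phosphoenolpyruvate carboxykinase, rose in the cold too but distinguished 5 °C from 1 °C. It had 20.08, 24.7 and 22.63 mRNA TPM at 1 °C, 98.09, 111.9 and 137.7 at 5 °C and 4.084, 3.247 and 5.489 at 30 °C. No 2 temperatures overlapped, 5 °C was highest, and the log2 changes against 30 °C were 1.58 ± 0.16 at 1 °C (adjusted p = 4.56e-07) and 4.09 ± 0.17 at 5 °C (adjusted p = 6.47e-11). At 1 °C against 5 °C with low [GSH] it changed by -2.51 ± 0.15 (adjusted p = 1.45e-08), where FBP1 was not called. In rank among all genes PCK1 stood at 5083, 1695 and 5365 and FBP1 at 4645, 3982 and 5632 at 1, 5 and 30 °C.

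Pyruvate carboxylase, which feeds oxaloacetate to PCK1 and to the citric acid cycle, is encoded by 2 genes that behaved differently. PYC1 had 257.4, 265.6 and 287.3 mRNA TPM at 1 °C, 348.4, 287.4 and 333.3 at 5 °C and 96.71, 104.3 and 135.5 at 30 °C. PYC2 had 108, 124.6 and 121.5 at 1 °C, 437.3, 409.1 and 372.4 at 5 °C and 175, 163.3 and 150.6 at 30 °C. PYC1 was above 30 °C at both cold temperatures, while PYC2 was above it at 5 °C (0.66 ± 0.12) and below it at 1 °C (-1.27 ± 0.12). PYC1 made up 69.6% of the pair at 1 °C, 44.3% at 5 °C and 40.6% at 30 °C. Relative to the typical gene, the 2 genes summed changed by -0.30 at 1 °C and 0.75 at 5 °C against 30 °C. In mRNA TPM their sum was higher in every 1 °C library than in any 30 °C library, so the sign at 1 °C depends on the scale.

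PFK26 and PFK27 both make fructose 2,6-bisphosphate, which activates phosphofructokinase and inhibits Fbp1, and FBP26 breaks it down. PFK26 (YIL107C) had 135.5, 138.2 and 128.1 mRNA TPM at 1 °C, 234.2, 230.7 and 219.6 at 5 °C and 17.09, 28.6 and 44.01 at 30 °C. No 2 temperatures overlapped, and the changes were 1.39 ± 0.19 (adjusted p = 1.04e-05) and 2.31 ± 0.19 (adjusted p = 6.71e-08). PFK27 had 60.14, 54.99 and 42.78 at 1 °C, 44.78, 40.71 and 47.9 at 5 °C and 55.78, 55.82 and 62.1 at 30 °C, with changes of -0.93 and -1.03. PFK26 therefore made up 71.9% of the pair at 1 °C and 83.7% at 5 °C but 32.9% at 30 °C. FBP26 rose in both comparisons, with 204.7, 209.2 and 192.6 mRNA TPM at 1 °C, 156.8, 153 and 150 at 5 °C and 51.92, 59.15 and 84.78 at 30 °C. Both PFK26, which makes the regulator, and FBP26, which breaks it down, were thus higher in the cold.

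Of the transcription factors, TYE7 rose, with 117, 126.6 and 105 mRNA TPM at 1 °C, 161.5, 163.2 and 196.9 at 5 °C and 53.91, 51.36 and 34.84 at 30 °C, and changes of 0.52 ± 0.16 and 1.24 ± 0.16. GCR1, the main activator of glycolytic genes, had 41.48, 47.2 and 37.64 at 1 °C, 55.21, 54.76 and 52.3 at 5 °C and 40.4, 41.98 and 38.87 at 30 °C. GCR2, its partner, had 63.71, 61.42 and 53.88 at 1 °C, 47.56, 50.3 and 49.38 at 5 °C and 42.05, 41.37 and 47.96 at 30 °C. GCR1 and GCR2 passed as lower relative to the typical gene, by -0.74 and -0.35 at 1 °C, while their mRNA TPM at 1 °C overlapped or exceeded those at 30 °C. The call of GCR1 at 5 °C (-0.23, adjusted p = 0.0303) was lost when any of 5 libraries was left out, with values of -0.17 to -0.25.

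At 1 °C against 5 °C in steady state, 3 members rose and 16 fell with low [GSH], where 58.7% of all genes were called, and 3 rose and 17 fell with high [GSH], where 58.8% were. PCK1 (-2.51 in each) and PYC2 (-1.92 ± 0.12 and -1.84 ± 0.12) fell furthest, and these have the values given above. GPM3 rose in both (0.71 ± 0.12 and 0.78 ± 0.12), as did FBP26 (0.26 and 0.30), and TPI1 rose with low [GSH] (0.38). With low [GSH], the call of FBP26 was lost when any of the 6 libraries was left out (adjusted p = 0.0583 to 0.0925), and that of TPI1 without replicate 2 at 1 °C (0.25, adjusted p = 0.0888) or replicate 3 at 5 °C (0.35, adjusted p = 0.0543). With high [GSH], the call of FBP26 was lost without replicate 1 at 5 °C (0.28, adjusted p = 0.0588). In share of mRNA the split was 8 higher and 9 lower with low [GSH] and 8 higher and 11 lower with high [GSH]. Per S. pombe read it was 21 higher and 2 lower, and 19 higher and 1 lower, with PCK1 lower in both and PYC2 with low [GSH].

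Labelled mRNA at an early time holds newly made transcripts, and at late times what has built up and not yet decayed. At 1 °C with low [GSH], 10 members rose and 5 fell at 48 h against 6 h, with 50.3% of all 5802 genes called, and with high [GSH] 11 rose and 4 fell, with 52.9% called. At 5 °C, 17 rose and 6 fell at 48 h against 1.5 h with low [GSH] (62.8% of genes called), and 15 rose and 6 fell with high [GSH] (63.5%). The member medians were 0.08, 0.38, 0.65 and 0.41 in that order, against all-gene medians of 0.00 to 0.01. These changes are in a gene's place among other labelled transcripts. Over all genes, longer genes tended to lower values at 48 h with low [GSH] (Spearman's rho with coding length of -0.517 at 1 °C and -0.319 at 5 °C). Unless stated, the single-gene changes that follow are not corrected for coding length. Per S. pombe read, 28 or 29 members were higher and 0 lower at 48 h in each condition, since labelled RNA accumulates.

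**Figure D3:**
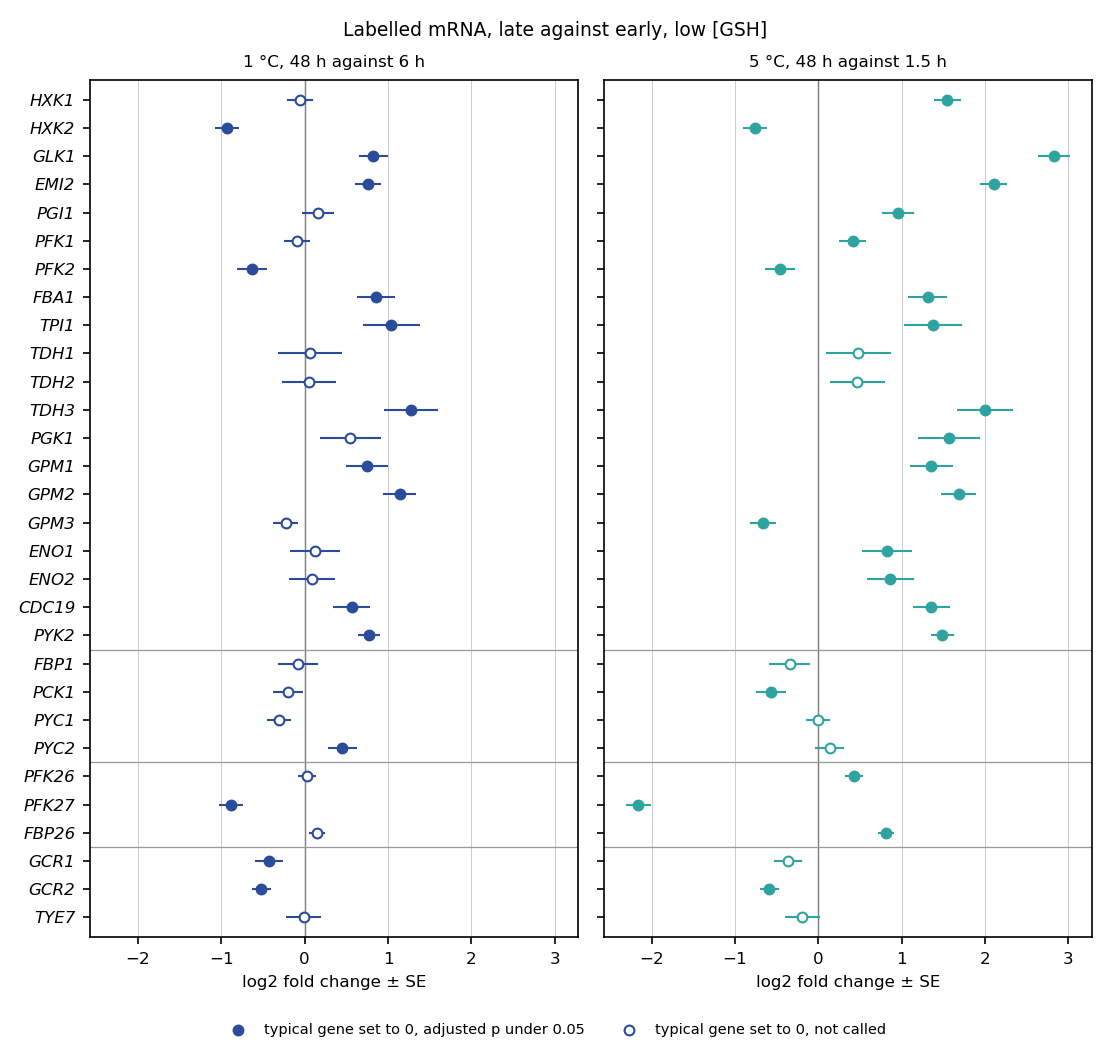
Log2 fold change ± SE of each gene in labelled mRNA with low [GSH], 48 h against 6 h at 1 °C and 48 h against 1.5 h at 5 °C, from 3 libraries per group, relative to the typical gene. Filled circles had an adjusted p under 0.05. GLK1, EMI2 and TDH3 lie to the right at 5 °C, and HXK2 and PFK27 lie to the left at both temperatures.

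TDH3 rose over labelling time at both temperatures. At 1 °C it had 9809, 10540 and 7747 mRNA TPM at 48 h, against 3550, 3983 and 6986 at 6 h, and at 5 °C it had 11130, 14460 and 10570 at 48 h, against 3463, 3496 and 4321 at 1.5 h. The groups did not overlap, and the log2 changes were 1.28 ± 0.33 (adjusted p = 0.00108) and 2.0 ± 0.34 (adjusted p = 8.09e-07). The 6 h library of replicate 3 at 1 °C stood apart from the other 2 here, for TPI1 and GLK1, and for the members as a whole. The 30 genes made up 3.71% of mRNA TPM in it, against 2.11% and 2.27% in replicates 1 and 2. This library enters every comparison with 6 h at 1 °C and low [GSH]. Scaled to the spike-in (gene TPM per 1000 TPM of S. pombe), TDH3 at 1 °C was at 136.2, 242.9 and 217.6 at 48 h and 15.55, 20.73 and 58.22 at 6 h, above a time 0 background of 0.4891, 0.4494 and 0.8115.

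The glucokinase pair rose most at 5 °C. GLK1 had 1100, 904.2 and 827 mRNA TPM at 48 h against 187.1, 155.6 and 152.9 at 1.5 h, a change of 2.83 ± 0.19 (adjusted p = 5.31e-19). EMI2 had 437.5, 358 and 369.6 at 48 h against 140, 98.9 and 97.36 at 1.5 h, a change of 2.11 ± 0.16 (adjusted p = 1.32e-16). At 1 °C, from a first time of 6 h, they changed by 0.82 ± 0.18 and 0.76 ± 0.16, with GLK1 at 757.5, 823.9 and 751.4 at 48 h against 356.4, 524.8 and 769.7 at 6 h, where 1 library overlapped.

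GPM2 rose at both temperatures, by 1.14 ± 0.20 at 1 °C (adjusted p = 4.74e-06) and 1.68 ± 0.21 at 5 °C. Its values at 1 °C were 89.14, 87.65 and 90.2 mRNA TPM at 48 h against 53.82, 72.65 and 29.45 at 6 h. TPI1 had 2813, 3586 and 2814 at 48 h against 1471, 1654 and 2507 at 6 h, a change of 1.04 ± 0.34 (adjusted p = 0.00999). The call of TPI1 was lost without replicate 1 at 6 h (0.86, adjusted p = 0.0599) and without replicate 2 at 48 h (0.88, adjusted p = 0.0514).

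HXK2 and PFK27 went the other way, being highest among the newest transcripts. HXK2 had 639.9, 659.3 and 507.3 mRNA TPM at 48 h against 1276, 1286 and 1782 at 6 h at 1 °C, and 876.5, 1044 and 939 at 48 h against 1957, 1851 and 2233 at 1.5 h at 5 °C. PFK27 had 70.91, 66.99 and 67.81 at 48 h against 174.8, 178.1 and 130.1 at 6 h at 1 °C, and 70.35, 69.74 and 77.03 at 48 h against 320.6, 420.3 and 471.1 at 1.5 h at 5 °C. Neither gene's groups overlapped at either temperature, and per S. pombe read neither was called lower at 48 h. HXK2 changed by -0.93 ± 0.15 (adjusted p = 6.44e-07) and -0.76 ± 0.15 (adjusted p = 1.17e-05), and PFK27 by -0.89 ± 0.15 (adjusted p = 1.33e-06) and -2.16 ± 0.15 (adjusted p = 3e-18). Next in order were PFK2 at 1 °C, with 189.7, 193.8 and 157.4 at 48 h against 279.6, 338.4 and 435.9 at 6 h (-0.63 ± 0.18, adjusted p = 0.00328), and GPM3 at 5 °C, with 45.55, 43.16 and 47.33 at 48 h against 107, 79.98 and 81.64 at 1.5 h (-0.66 ± 0.16, adjusted p = 0.000214). Without replicate 3 at 6 h, PFK2 was not called (-0.41, adjusted p = 0.0739).

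**Figure D4:**
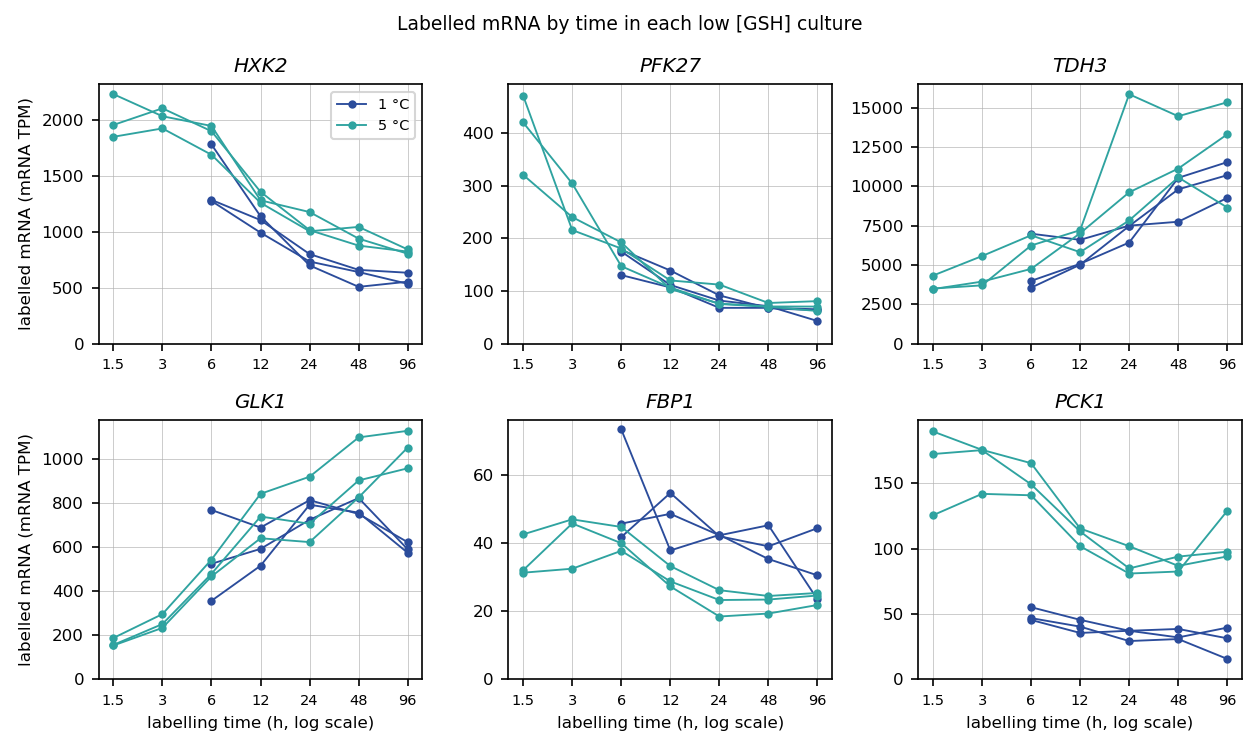
Labelled mRNA of 6 genes in each low [GSH] culture by labelling time, in mRNA TPM against time on a log axis, with 1 line per culture for 3 cultures at 1 °C and 3 at 5 °C. HXK2 and PFK27 decline and TDH3 and GLK1 climb, and PCK1 at 1 °C stays below 5 °C at every shared time.

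Isozyme shares moved with labelling time accordingly. HXK2 made up 79.2%, 76.5%, 64.2%, 46.1%, 41.3%, 33.3% and 27.9% of the 4 kinases at 1.5, 3, 6, 12, 24, 48 and 96 h at 5 °C, and 48.8%, 40.3%, 29.3%, 26.0% and 28.7% at 6, 12, 24, 48 and 96 h at 1 °C. The steady-state shares were 19.2% at 5 °C and 27.1% at 1 °C, so new transcripts held a larger part of HXK2 than the standing pool. In its pair at 5 °C, PFK27 made up 34.4% ± 2.15 at 96 h against 76.8% ± 5.90 at 1.5 h, and at 1 °C it made up 36.2% ± 1.29 at 96 h against 57.0% ± 2.92 at 6 h (SD over 3 libraries). Among the TDH genes at 5 °C, TDH3 made up 89.6% ± 0.24 at 96 h against 72.1% ± 0.42 at 1.5 h, and at 1 °C it made up 91.3% ± 0.62 at 96 h against 75.5% ± 0.14 at 6 h. In labelled mRNA at 30 °C after 10 min, HXK2 was 43.4%, 61.2% and 58.4% of the kinases, and PFK27 was 84.8%, 89.8% and 81.1% of its pair, from libraries of unequal depth. Both shares were above those in steady state at 30 °C, 30.1% for HXK2 and 67.1% for PFK27. PFK27 was thus already the larger part of its pair in the standing pool there. At 5 min HXK2 was 45.0%, 76.4% and 40.9% and PFK27 0%, 89.4% and 86.4%, the 0% from a library with 18937 reads on mRNA.

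**Figure D5:**
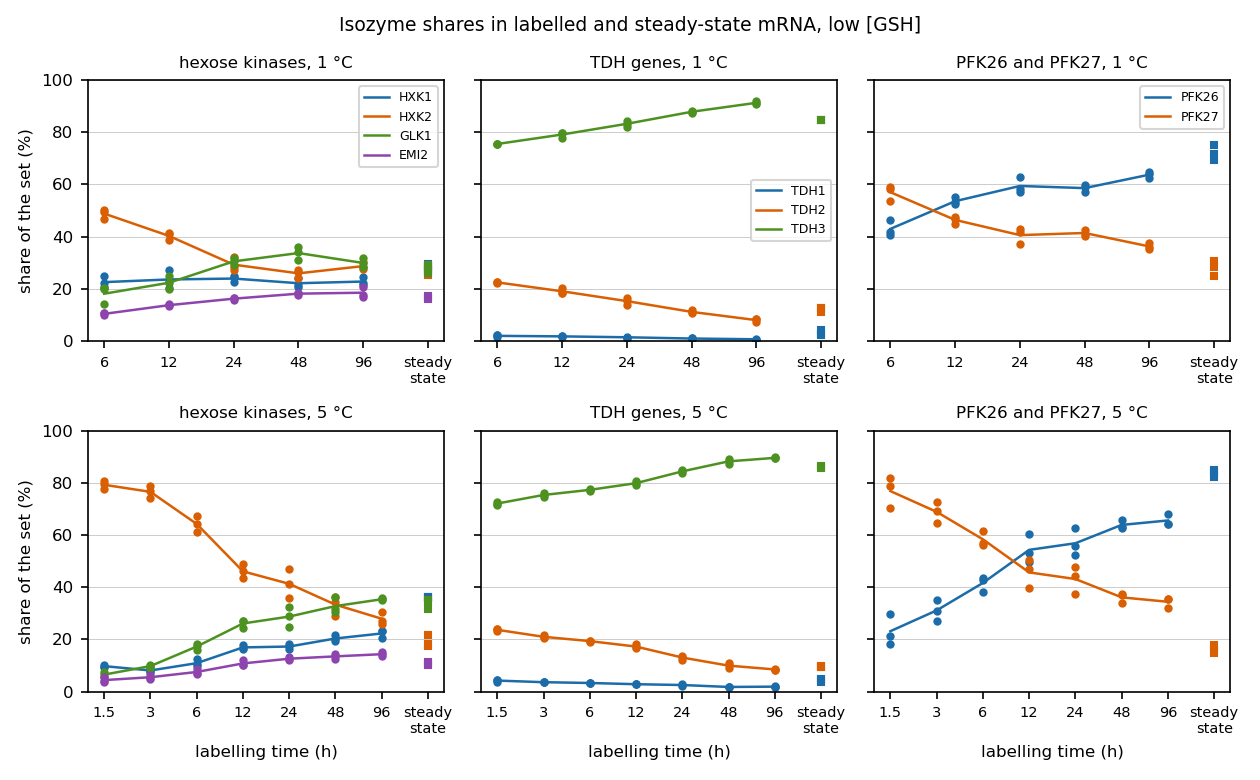
Share of each isozyme in the summed level of its set, in percent, by labelling time and in steady state with low [GSH], at 1 °C in the upper row and 5 °C in the lower row. Circles are libraries, lines join group means and squares are steady-state libraries. HXK2 and PFK27 lose share with time and TDH3 gains it at both temperatures.

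The apparent half-life, from a fit of constant synthesis and decay to each culture's spike-in scaled course up to 48 h, was short for PFK27 and HXK2 and long for TDH3, and it rests on the same libraries. With low [GSH], PFK27 had 3.84 h ± 0.59 at 1 °C and 0.576 h ± 0.378 at 5 °C. The 5 °C value is shorter than the first labelled time and includes 1 culture at the lower bound of the fit (0.15 h), so it is poorly bounded. For HXK2 it was 4.08 h ± 2.19 (1 °C) and 1.99 h ± 1.10 (5 °C), each the mean of 3 cultures with the SD. The 1 °C values of PFK27 and HXK2 are also shorter than the first labelled time there (6 h, against 1.5 h at 5 °C). TDH3 had 24.8 h ± 7.91 at 5 °C, and at 1 °C its fit reached the upper bound in 1 culture. FBP1 had 8.89 h ± 1.12 at 1 °C against 1.95 h ± 0.13 at 5 °C, and PCK1 had 8.72 h ± 3.03 at 1 °C against 2.33 h ± 1.36 at 5 °C. The median over the 30 members was 11.5 h at 1 °C with high [GSH] and 11.2 h with low [GSH], against 8.56 and 9.17 h over all genes. At 5 °C it was 23 h with high [GSH] and 7.88 h with low [GSH], against 24.9 and 4.80 h over all genes. With 96 h included, the member medians were 7.32 h with high and 7.08 h with low [GSH] at 1 °C, and 30.2 h with high and 16.7 h with low [GSH] at 5 °C. At 5 °C with high [GSH] it was 14.1 h without replicate 1 and 13.8 h with weighted fits. These medians ranged over cultures from 7.32 to 17.9 h at 1 °C with low [GSH], from 6.48 to 10.4 h at 5 °C with low [GSH] and from 7.68 to 43.8 h at 5 °C with high [GSH], and were not tested. Of the 30 members, 21 with high and 18 with low [GSH] were above the all-gene median at 1 °C, and 13 with high and 22 with low [GSH] at 5 °C.

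Newly made mRNA at a matched time also differed between the cold temperatures. After 6 h of labelling, 3 members rose and 11 fell at 1 °C against 5 °C with low [GSH], with 52.4% of all genes called, and 2 rose and 17 fell with high [GSH], with 54.1% called. PYC2 had 77.09, 104.4 and 138 mRNA TPM at 1 °C against 535.3, 440 and 442.1 at 5 °C with low [GSH] (-2.46 ± 0.19, adjusted p = 3.49e-16), and 89.57, 114.8 and 102.9 at 1 °C against 582.1, 442.9 and 567.9 at 5 °C with high [GSH] (-2.81 ± 0.19). PCK1 had 46.7, 55.07 and 45.32 at 1 °C against 140.8, 149.2 and 165.4 at 5 °C with low [GSH] (-1.95 ± 0.19, adjusted p = 7.16e-13). Both were therefore lower at 1 °C on all 3 scales among the transcripts made within hours, as in steady state with low [GSH]. In steady state with high [GSH], PCK1 was lower on all 3 scales and PYC2 was not. HXK1 rose with low [GSH] (0.79 ± 0.16), at 635.4, 537.1 and 841 mRNA TPM at 1 °C against 385.8, 279.8 and 281.4 at 5 °C, and GPM3 (0.54 with low and 0.38 with high [GSH]) and GCR2 (0.47 and 0.28) rose with both. With high [GSH], GPM3 was not called without replicate 2 or 3 at 1 °C or replicate 2 or 3 at 5 °C (adjusted p = 0.0595 to 0.114), nor GCR2 without replicate 3 at 1 °C (adjusted p = 0.147) or replicate 2 at 5 °C (adjusted p = 0.278). In share of mRNA 8 members were higher and 8 lower with low [GSH], and 4 were higher and 14 lower with high [GSH].

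At 30 °C, FBP1 was at 13.91, 14.37 and 6.181 mRNA TPM in labelled mRNA at 20 min, from 334, 332 and 65 reads, each above its steady-state level of under 1 mRNA TPM. PCK1 was at 8.786, 5.971 and 19.33 mRNA TPM there and TDH1 at 948.7, 1563 and 1938, below its steady-state level. These were not tested against each other.

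The change over time itself differed between 1 °C and 5 °C for 2 members when both were compared at 48 h against 6 h with low [GSH], where 18.3% of all genes were called. HXK1 had 584.7, 503.4 and 452.1 mRNA TPM at 48 h against 635.4, 537.1 and 841 at 6 h at 1 °C, and 603.6, 561.6 and 586.2 at 48 h against 385.8, 279.8 and 281.4 at 6 h at 5 °C. It climbed at 5 °C and not at 1 °C, a difference of -1.17 ± 0.22 (adjusted p = 0.000238). GCR1 had 33.06, 35.24 and 44.86 at 48 h against 54.33, 80.96 and 56.85 at 6 h at 1 °C, and 52.23, 52.51 and 58.98 at 48 h against 56.75, 50.45 and 49.68 at 6 h at 5 °C, a difference of -0.71 ± 0.23 (adjusted p = 0.0273). The call of GCR1 was lost in 6 of the fits that left out a library (-0.52 to -0.72). Longer genes tended to lower values in this comparison (Spearman's rho of -0.445 with coding length over 5802 genes, which are not replicates) and in labelled mRNA at 48 h (-0.517 at 1 °C and -0.319 at 5 °C with low [GSH]). The members' median coding length was 1408.5 bases against 1185 over all genes, and with an offset for coding length GCR1 was not called (-0.43, adjusted p = 0.112) while HXK1 was (-1.15).

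Added glutathione left no called difference in these genes. In steady state, 0 of 30 members and 0% of all genes passed at 1 °C and again at 5 °C, by edgeR and by DESeq2 for the members, with 2 members at an unadjusted p under 0.05 at 1 °C and 0 at 5 °C. The larger of those 2 was TDH1, at 570, 604 and 526 mRNA TPM with high [GSH] against 503.8, 369.9 and 448.8 with low [GSH] at 1 °C (0.42 ± 0.16, adjusted p = 0.896), and the other was HXK1 (0.25). At 5 °C TDH1 had 1052, 1121 and 979.6 mRNA TPM with high [GSH] against 767.4, 914.9 and 867 with low [GSH], without overlap, and was not called. In labelled mRNA summed per culture, 0 members and 0% of genes passed at 1 °C and at 5 °C, with 1 member at an unadjusted p under 0.05 in each, HXK1 (-0.30) and TYE7 (0.43). Reads were added over times without weighting, so deeper libraries counted more and the mix of times differed between cultures. The difference of the glutathione effect between the 2 temperatures was called for 0 members and 0% of genes as well, with 0 members at an unadjusted p under 0.05. FBP1 was at 25.25, 25.95 and 29.9 mRNA TPM with high [GSH] against 23.49, 45.95 and 26.3 with low [GSH] at 1 °C, and PCK1 at 19.29, 21.86 and 21.08 against 20.08, 24.7 and 22.63, so the groups overlapped for both.

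Of 29 further genes of glucose repression, gluconeogenic activation and enzyme turnover, 14 rose and 9 fell in steady state at 1 °C against 30 °C relative to the typical gene, where 73.4% of all genes were called, and 17 rose and 7 fell at 5 °C, where 74.5% were. These genes cover the Snf1 kinase and its regulators, repressors and activators that respond to glucose, glucose signalling and the GID ubiquitin ligase. HAP4, an activator of respiratory genes, fell at 1 °C (-3.00), and GID7, a subunit of the GID ligase, which degrades Fbp1 and Pck1 on glucose, rose at 1 °C (1.44) and 5 °C (1.66), as did VID28 at 5 °C (1.22). At 1 °C against 5 °C, 2 rose and 17 fell with low [GSH] (58.7% of all genes called) and 2 rose and 14 fell with high [GSH] (58.8%), with HAP4 (-2.10 and -2.15) and SNF1, the kinase that relieves glucose repression (-0.99 and -1.06), named by their adjusted p. In labelled mRNA at 6 h, SNF1 was again lower at 1 °C than at 5 °C with low (-1.19) and high [GSH] (-1.31), as were SIP4 with low (-1.98) and MIG3 with high [GSH] (-1.44). There 8 rose and 6 fell with low [GSH] (52.4% of all genes called), and 5 rose and 8 fell with high [GSH] (54.1%). At 48 h against the first time, 5 rose and 9 fell at 1 °C with low [GSH] (50.3% of all genes called), 4 and 10 with high [GSH] (52.9%), and at 5 °C 14 rose and 9 fell with low [GSH] (62.8%), 16 and 7 with high [GSH] (63.5%). At 1 °C, SIP1 fell with low (-0.97) and high [GSH] (-0.83) and BCY1 rose (0.96 and 0.83), and at 5 °C BCY1 rose by 2.22 with each. The difference of time courses was called for 1 as higher and 5 as lower, with 18.3% of all genes called, among them SIP1 (-0.87) and VID28 (-0.56). None of the 29 was called for added glutathione.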

How the data were processed

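The authors quantified stranded, ribosome-depleted total RNA with Salmon against transcripts of both yeasts, and the deposited TPM are relative abundances over all of these transcripts. Salmon's estimated counts, deposited with the TPM, need not be whole and were rounded before testing. R64 is the build in the submitters' processing notes, and gene names and coordinates came from RefSeq's R64 annotation. TPM were rescaled over nuclear protein-coding genes for levels, and divided by summed S. pombe TPM and multiplied by 1000 for spike-in ratios.

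Tests used edgeR 4.0.16 (TMM, filterByExpr, quasi-likelihood; R 4.3.3) in 3 fits: 15 steady-state libraries (5697 genes), 70 cold labelled libraries after time 0 (5802) and 12 cold cultures summed over the labelled times (5807), with all 30 members tested in each. The times summed were 6, 12, 24, 48 and 96 h (1 °C) or 1.5, 6, 24, 48 and 96 h (5 °C). TMM scaling makes the trimmed mean change of all genes 0. In the labelled fit, several libraries of one culture counted as independent. SE is the absolute log2 change over the square root of F. DESeq2 1.42.0 was an alternative. Half-lives were least-squares fits per culture to spike-in ratios with time 0 subtracted, kept within 0.1 times the earliest and 20 times the latest labelled time. Python 3.11.15 with pandas 2.3.3, numpy 2.4.6, scipy 1.17.1 and matplotlib 3.10.9 did the rest. Scripts were tested on simulated data.

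Members and lists were chosen with earlier results of these data known. Values in every library are given for isozyme sets, for FBP1 and PCK1, and for the 3 largest rises and 3 largest falls past the test with at least 100 reads on average in the higher group, in steady state at 1 °C and 5 °C against 30 °C and in low [GSH] labelled mRNA at 48 h against the first time. PGI1, PFK2, FBP26, TYE7, GCR1, GCR2 and the values at 6 h were added after their values were seen. Of the 29 further genes, those with the 2 smallest adjusted p are named in each comparison with any call, except that 1 gene is not reported here. Sequencing batches and dates are not given in the sources used here, so a batch and temperature cannot be told apart. Time in culture before sampling and growth state may also have differed with temperature, and cannot be told apart from it here. Counts of RNA FISH spots were not used here.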

Additional observations from a re-analysis of the deposited data

Results flagged for a closer look

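Between 1 °C and 5 °C with low [GSH], the change of 2 of the 30 genes over labelling time (48 h against 6 h) differed by a test of the difference itself. For HXK1 it was -1.174 on the log2 scale (edgeR, adjusted p = 0.000238), and it remained called when any one of the libraries was left out, with values of -1.32 to -0.94. Per S. pombe read it was -1.26 and not called (adjusted p = 0.457). For GCR1 it was -0.7109 (adjusted p = 0.0273), and the call was lost in 6 of the fits that left out a library and with an offset for coding length (-0.43, adjusted p = 0.112). The 6 h libraries at 1 °C ran at 635.4, 537.1 and 841 mRNA TPM for HXK1 and 54.33, 80.96 and 56.85 for GCR1.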

How the results depend on the processing

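With library sizes from S. pombe reads, 24 members were called at 1 °C and 18 at 5 °C against 30 °C in steady state, and 23 with low and 20 with high [GSH] at 1 °C against 5 °C. In labelled mRNA this scale called 28 (1 °C, low [GSH]) and 29 (1 °C, high [GSH]) at 48 h, 11 (low) and 4 (high) at 6 h between temperatures, and 0 for the difference of time courses. The sign of the member median turned on it in the steady-state comparisons, at 6 h with low [GSH] and for the difference of time courses. With copies summed, the last called 1. Leaving out 1 library gave 12 to 16 calls for 48 h against 6 h at 1 °C with low [GSH], where the member median turned to -0.05 without replicate 1 at 6 h (13 calls) and to just under 0 without replicate 2 at 48 h (12 calls), and 1 to 3 for the difference of time courses, where it turned without replicate 3 at 6 h and 1 °C (3 calls). The ranges were 29 to 30, 26 to 27, 18 to 20 and 17 to 19 calls for the 4 steady-state temperature comparisons, 14 to 15, 21 to 23 and 19 to 20 for the other labelled courses, 14 to 18 and 15 to 18 at 6 h, and 0 for added glutathione. The member half-life at 5 °C with low [GSH] was 16.7 h with 96 h included. By reads in place of TPM the members made up 5.21%, 5.65% and 11.7% of mRNA at 1, 5 and 30 °C. Of 204 called results for single genes, none reversed in sign relative to the median gene. With library sizes from S. pombe or summed mRNA reads, that sign was taken after subtracting the all-gene median, but the adjusted p was not. A gene lower relative to the typical gene but called higher per S. pombe read therefore counted as kept. Library sizes from S. pombe reads lost 66 and from summed mRNA reads 25, DESeq2 or RLE normalization 2 each, all S. cerevisiae transcripts 4, an offset for coding length 12 and fits of only the groups compared 13.

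Same-numbered libraries did not pair by the check used, since in no comparison did every pair of deviations correlate above 0.1. Every sample correlated best with its own number for added glutathione in steady state at 1 °C and at 5 °C and for labelled mRNA at 1 °C with high [GSH]. With the replicate number as a block, 29, 27, 20 and 21 members were called in the steady-state temperature comparisons, 15, 17, 24 and 21 in the labelled courses, 15 and 20 at 6 h, 3 for the difference of time courses and 0 for added glutathione.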
